A study of Mus musculus with 2 samples.

Results

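Cytosolic ribosomal protein genes encode the proteins of the small and large ribosomal subunits that translate nuclear mRNA. They were taken as the genes with a probe set whose single annotated symbol begins with Rpl or Rps and a digit, or is Rplp0, Rplp1, Rplp2 or Rpsa, without the Rps6k kinase genes. This gave 49 genes of 12393 on the array. They are not all the ribosomal protein genes, and Rplp1, Rpl3 and Rpl5, for example, are not among them. Each of the 49 was read from its brightest probe set, the one with the highest mean log2 signal. The series has 2 Affymetrix oligonucleotide arrays of liver total RNA from mice that lack apolipoprotein E, all on a high-fat diet. One array represents animals whose diet had added unsaponifiable fraction (titled orujo), the minor part of olive oil left when its fatty acid esters are broken down, and 1 array animals whose diet was enriched in the oil itself (titled olive). There was 1 array per diet, so the diets could not be tested and every ratio below describes this pair of arrays, with no error between animals. The sources used here state neither the animals' age and sex nor whether RNA of several was combined on an array. Signals given in pairs below are always the unsaponifiable fraction array first and the olive oil array second.

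Translating ribosomes join a small subunit, which decodes mRNA, to a large subunit, which forms the peptide bond. Most ribosomal protein mRNAs carry a 5′ terminal oligopyrimidine tract, called TOP, that begins at the cap with a C followed by other pyrimidines and couples their translation to nutrient signalling through the kinase complex mTORC1. In liver, a main source of plasma proteins, these mRNAs are abundant, and several genes have paralogs that are used in other tissues or held low.

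The starts of these genes are shown first because the tract is a sequence feature that the choice by symbol did not use. RefSeq promoter windows of build GRCm38.p6, from 250 bases before a gene's start to 50 after it, were found by gene identifier for 42 of the 49 genes, in 50 windows since some genes have several annotated starts. A TOP-like run was defined as a C within 5 bases of the start that opens a stretch of at least 6 bases of C or T on the transcribed strand. Such a run was present in 17 of the 50 windows (34.0%), against 9.40% of all 32851 windows in the table. The lines below give 30 bases per gene, 15 before the annotated start and 15 from it on, 5′ to 3′ on the transcribed strand, with the run in capitals. The first 6 genes carry a run and the last 2, Rpl22 and Rpl41, do not; for Rpl22 the window shown is one of its annotated starts, and its other window holds no run either.
Rpl27a, chr7:109519180-109519209, plus strand: gacttcgtgagCTCCTCCCTTTTCCCTTTC
Rpl35, chr2:39005117-39005146, minus strand: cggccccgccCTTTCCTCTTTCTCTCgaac
Rps6, chr4:86857353-86857382, minus strand: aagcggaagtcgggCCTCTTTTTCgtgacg
Rps18, chr17:33955651-33955680, minus strand: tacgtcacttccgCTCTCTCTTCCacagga
Rpl38, chr11:114668565-114668594, plus strand: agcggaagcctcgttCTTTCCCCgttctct
Rpl22l1, chr3:28805493-28805522, plus strand: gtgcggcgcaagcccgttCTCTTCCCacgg
Rpl22, chr4:152325711-152325740, plus strand: ttcgccctgggaaaagcaatagctggccga
Rpl41, chr10:128549154-128549183, minus strand: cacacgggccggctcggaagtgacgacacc
In Rpl35 the run as defined began 5 bases before the annotated start and was 16 bases long, though further C letters directly precede it. In Rpl38 the run began at the start itself and was 8 bases long, and in Rpl22l1 it opened at base 4 after the start. The Rpl27a run was 20 bases long and goes on past the bases shown. An annotated start can differ from the cap site used in liver, so a missing run says only that these letters are not there.

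A promoter motif was also more frequent in these windows than in all windows. The letters CCGGAAG, the core bound by ETS family factors such as GABPA, occurred on either strand in 21 of 50 windows (42.0%), against 8.86% of all windows. AAGATGGC, a core of YY1 sites, was present in 4 (8.00% against 2.75%), and TATAAA in 6 (12.0% against 13.6%), also on either strand. The 150 bases before the start follow for 5 genes picked as examples, with CCGGAAG, AAGATGGC and TATAAA or their complements in capitals. Rpl41, Rps18 and Rpl38 hold the ETS core. Rpl22l1 has overlapping TATAAA letters on both strands instead, and the Rpl22 window shown has none of the 3 motifs. Among genes named below but not shown, Rpl27a and Rps19 have none of the 3 motifs in these bases, and Rpl39 has only TATAAA.
Rpl41, chr10:128549169-128549318, minus strand: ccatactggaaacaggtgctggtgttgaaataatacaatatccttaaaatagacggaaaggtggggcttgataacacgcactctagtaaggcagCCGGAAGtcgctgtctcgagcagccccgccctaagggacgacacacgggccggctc
Rps18, chr17:33955666-33955815, minus strand: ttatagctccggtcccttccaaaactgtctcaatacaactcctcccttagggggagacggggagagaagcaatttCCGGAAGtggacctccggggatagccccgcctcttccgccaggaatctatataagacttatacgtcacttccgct
Rpl38, chr11:114668430-114668579, plus strand: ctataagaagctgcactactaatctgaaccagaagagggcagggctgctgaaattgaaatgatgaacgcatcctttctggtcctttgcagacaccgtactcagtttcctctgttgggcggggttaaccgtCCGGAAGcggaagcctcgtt
Rpl22l1, chr3:28805358-28805507, plus strand: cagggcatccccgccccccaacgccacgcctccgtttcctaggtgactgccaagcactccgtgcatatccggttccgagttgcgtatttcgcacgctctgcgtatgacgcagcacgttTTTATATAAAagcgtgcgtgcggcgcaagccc
Rpl22, chr4:152325576-152325725, plus strand: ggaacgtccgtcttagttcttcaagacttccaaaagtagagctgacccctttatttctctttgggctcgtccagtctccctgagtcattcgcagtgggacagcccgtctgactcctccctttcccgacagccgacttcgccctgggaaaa
Median GC content was 57.2% over the ribosomal windows and 52.7% over all windows.

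As a group, these genes had nearly equal signal on both arrays. A gene counts as measured when its scaled signal was above a floor of 35.6 on both arrays, the 50th percentile of the pooled signals, and its log2 ratio sets the first array over the second, so that positive values mean higher signal with the unsaponifiable fraction. Of the 49 genes, 42 were measured, 7 lay below the floor on both arrays and 0 on only one. The median log2 ratio of the measured genes was 0.02, against −0.02 over all 6640 measured genes, and it changed sign to −0.05 under quantile normalization and −0.06 under loess. Ratios were above 0 for 26 of 42 genes (61.9%) where 47.5% of all measured genes were, and for 17 and 16 of 42 under these normalizations. Signal was at least 1.5-fold higher with the unsaponifiable fraction for 4 of the 42 (9.52%), where 5.57% of all measured genes were that much higher. Signal at least 1.5-fold lower was found for 1 (2.38%), where 5.56% of all measured genes were. At the 2-fold limit 1 of the 42 was higher, against a background of 1.36%, and 0 were lower, against 0.979%.

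**Figure D1:**
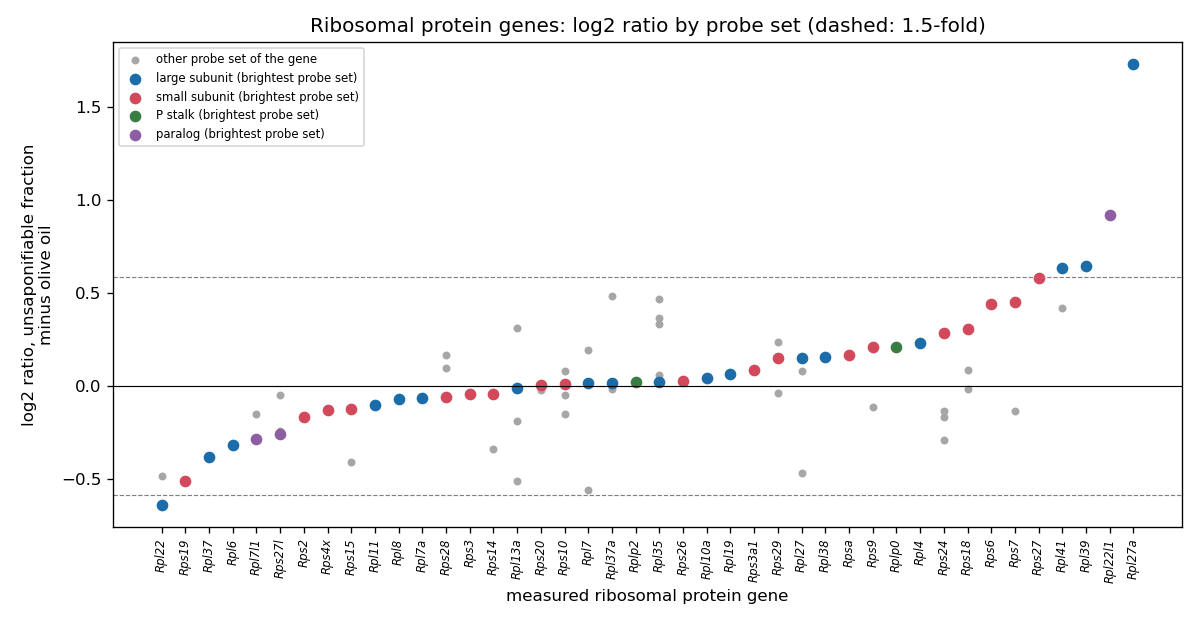
Log2 ratio (unsaponifiable fraction minus olive oil, vertical axis) of the 42 measured ribosomal protein genes, ordered by ratio. Coloured points are the brightest probe set, grey points the gene's other measured probe sets, and dashed lines mark 1.5-fold; 4 genes lie above the upper line, 1 lies below the lower one, and the grey points of Rpl13a and Rpl7 lie on both sides of 0.

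Genes read from bright probe sets lay closest together. Among the 32 genes with a mean log2 signal of at least 10, a limit chosen after the data were seen, 30 (93.8%) differed by less than 1.25-fold and the SD of the log2 ratio over genes was 0.20. Of all 411 measured genes that bright, 281 (68.4%) were within 1.25-fold and the SD was 0.50. Over all measured genes 65.4% were within 1.25-fold, and of the 42 ribosomal genes 32 were (76.2%). The 10 dimmer ribosomal genes ranged from −0.64 to 1.73, and 2 of them were within 1.25-fold. These 10 include 4 of the 5 genes past 1.5-fold. Their spread and the brightness of their probe sets move together here, and the part of brightness in it was not tested.

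**Figure D2:**
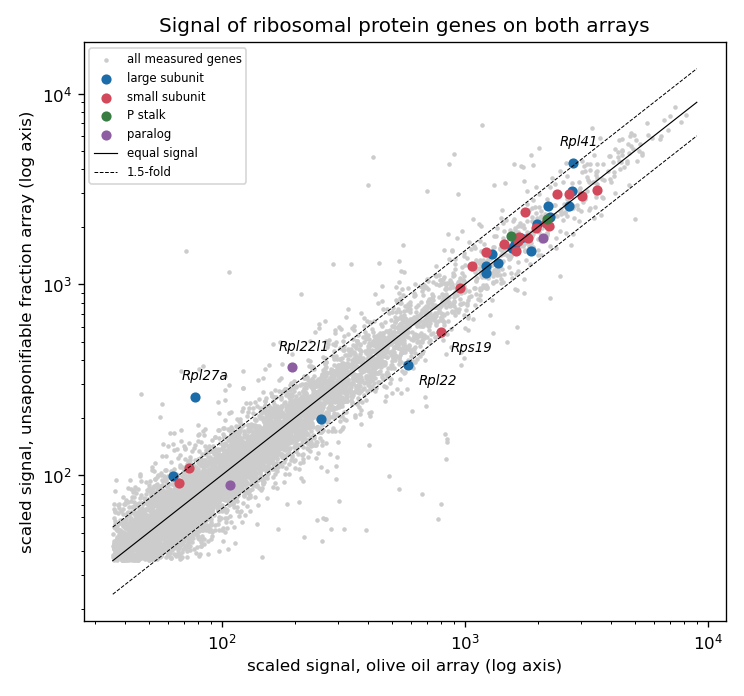
Scaled signal of each measured gene on the olive oil array (horizontal, log axis) and the unsaponifiable fraction array (vertical, log axis), with ribosomal protein genes coloured by class over all 6640 measured genes in grey. Most coloured points sit in 1 cluster at the line of equal signal, with Rpl27a and Rpl22l1 above it and Rpl22 and Rps19 below it.

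Large-subunit genes centred on no difference and held the extremes. The 18 measured of the 20 large-subunit genes that the rule gave had a median log2 ratio of 0.02, with 11 above 0. This median changed sign under quantile normalization (−0.05), under loess (−0.07) and with probe sets of a gene averaged (−0.01). Rpl27a, a large-subunit protein, had scaled signals of 256 and 77.5, a 3.31-fold higher value with the unsaponifiable fraction. It was the only ribosomal gene past 2-fold, rests on 1 measured probe set, and lay between 1.37 and 1.74 on the log2 scale under the alternatives that gave it a ratio. With the floor at the 75th percentile it was no longer measured on both arrays. Its other probe set was below the floor on both.

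Rpl39, a short protein at the exit of the peptide tunnel, had signals of 98.7 and 63.2, a log2 ratio of 0.64 from a single dim probe set, which was 0.44 as log2(value + floor). Rpl41, the smallest ribosomal protein, had signals of 4330 and 2790, a 1.55-fold higher value, and its second probe set gave 1603 and 1201 (log2 ratio 0.42). It was the only gene of the bright set past 1.5-fold, and both its measured probe sets were higher on the unsaponifiable fraction array. Of its 4 probe sets 2 were measured, and the others were below the floor on both arrays. Both measured ones are of a type that can share sequence with other genes, and without that type Rpl41 had no ratio. The Rpl41 ratio of 0.63 was just past the 1.5-fold limit, and it fell short of it under quantile normalization (0.54), under loess (0.49) and with probe sets averaged (0.53). Rpl4, which lines the peptide tunnel, was next among the standard large-subunit genes at 0.23 (2571 and 2196).

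Lower signal on the unsaponifiable fraction array among large-subunit genes was led by Rpl22. Rpl6 had signals of 1499 and 1871 (−0.32) and Rpl37, a zinc-binding protein, 197 and 257 (−0.38), each from 1 probe set. Rpl11, which with Rpl5 and 5S rRNA can bind the p53 regulator Mdm2, had signals of 1143 and 1225 (−0.10). Rpl38, known from mice with skeletal patterning defects, had signals of 3080 and 2762 (0.16). The genes Rpl7a (−0.06), Rpl8 (−0.07), Rpl10a (0.04) and Rpl19 (0.06) lay within 0.1 of no difference. Of the measured large-subunit genes, 13 of 18 were within 1.25-fold.

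The paralogs Rpl22 and Rpl22l1 had opposite ratios. Rpl22 encodes an RNA-binding protein of the large subunit, and Rpl22l1 its close relative, whose expression Rpl22 protein is known to repress in mice. Rpl22 had signals of 376 and 585, 1.56-fold lower with the unsaponifiable fraction. Its second probe set gave 111 and 155, a log2 ratio of −0.48 beside −0.64 in the brighter one. Rpl22l1 had signals of 367 and 194, 1.89-fold higher on the unsaponifiable fraction array (log2 ratio 0.92), from 1 probe set. Both measured probe sets of Rpl22 were thus lower and the probe set of Rpl22l1 higher on that array. The direction held in each alternative that gave a ratio: Rpl22 lay between −0.66 and −0.56, and Rpl22l1 between 0.81 and 0.94. With the mean over probe sets Rpl22 no longer passed 1.5-fold. Neither ratio can be set against variation between animals.

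**Figure D3:**
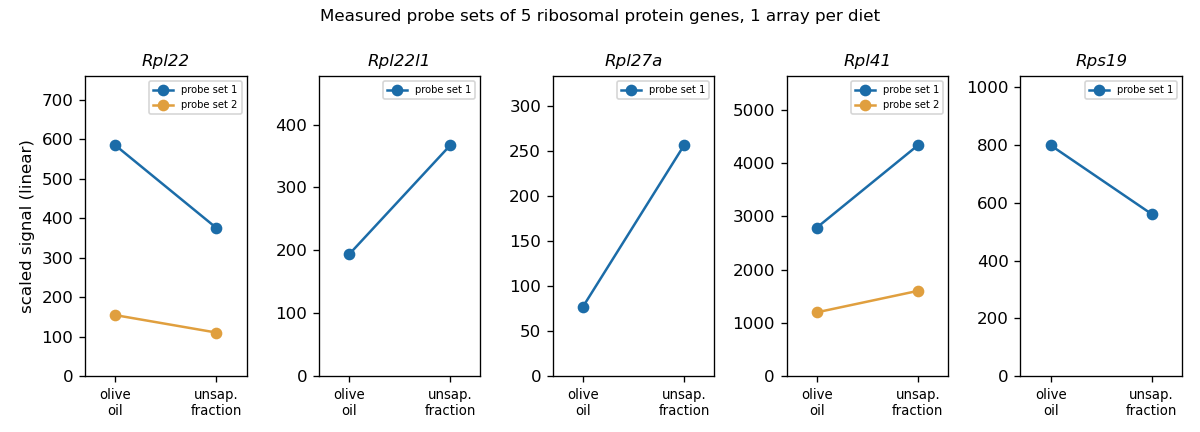
Scaled signal (vertical, linear axis from 0) of every measured probe set of Rpl22, Rpl22l1, Rpl27a, Rpl41 and Rps19 on the olive oil and unsaponifiable fraction arrays, 1 array per diet; lines join the values of a probe set. With the unsaponifiable fraction both Rpl22 probe sets and the Rps19 one are lower, and the probe sets of Rpl22l1, Rpl27a and Rpl41 are higher.

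The other paralogs differed less or were not detected. Rps27l, a relative of Rps27 that responds to p53, had signals of 1758 and 2100 (−0.26), and its other probe sets gave −0.24 and −0.05. Its parent Rps27 had signals of 109 and 73.0 from a single probe set, a log2 ratio of 0.58 that lay just short of 1.5-fold. Probe sets of such close relatives can share signal. Rpl7l1, a factor of large-subunit assembly related to Rpl7, was at −0.28 (89.0 and 108), with −0.15 in its second probe set, while Rpl7 itself was at 0.02 (1633 and 1613). Rpl39l, Rpl3l and Rps4l were below the floor on both arrays, with signals between 0.899 and 8.41. Rpl39l and Rpl3l are known from testis and striated muscle. The pseudogene Rps15a-ps6 was below the floor as well, and so were the probe sets of Rpl12, Rpl14 and Rps25. Those 3 standard genes had 1 probe set each with a single symbol, and no probe set with several symbols was read for them.

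Small-subunit genes lay in a narrower range, from −0.51 to 0.58. The 19 measured of the 20 small-subunit genes that the rule gave had a median log2 ratio of 0.03, with 12 above 0. This median changed sign under quantile normalization (−0.03) and loess (−0.05). Of the 19, 0 passed 1.5-fold in either direction, though Rps27, at 0.58, passed it narrowly with ratios centred on their median (0.60) and under quantile normalization (0.59). Rps19, which is mutated in many families with Diamond-Blackfan anaemia, had signals of 561 and 798. Its log2 ratio of −0.51, from 1 probe set, was the lowest of the small subunit and lay between −0.54 and −0.48 under the alternatives. Rps2 had signals of 3112 and 3499 (−0.17), and Rps4x, encoded on the X chromosome, 2032 and 2220 (−0.13).

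At the upper end, Rps7, which can bind Mdm2, had signals of 2408 and 1762 (0.45), but its second probe set was at −0.13. Rps6, the substrate of S6 kinase, had signals of 90.6 and 66.8 (0.44) from a dim probe set, and its other single-symbol probe set was below the floor. Rps18 had signals of 2967 and 2399 (0.31), with 0.09 and −0.02 in its other measured probe sets. Rps24 was at 0.28 in its brightest probe set and between −0.29 and −0.14 in its other 3, and with their mean its ratio changed sign to −0.08. Rps28 (2900 and 3028) and Rps29 (2971 and 2682), 2 of the brightest probe sets, were at −0.06 and 0.15. Of the small-subunit genes 15 of 19 were within 1.25-fold.

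The stalk and the laminin-binding member were close to equal. Rplp0 and Rplp2 belong to the acidic stalk of the large subunit that recruits elongation factors. Rplp0 had signals of 1800 and 1555 (0.21) and Rplp2 of 2199 and 2169 (0.02, with the sign changed under quantile normalization and loess). Rpsa, a small-subunit protein also known as a laminin receptor, had signals of 1631 and 1454 (0.17), and its second probe set was below the floor.

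Different probe sets of a gene often did not share a sign. The 49 genes had 101 probe sets with a single symbol, of which 78 were measured. For 19 genes with at least 2 measured probe sets, the sign was shared by all of them in 7 and not in 12. The difference between the ratios of the 2 brightest had an SD of 0.29, against 0.43 over the 2057 genes on the array with at least 2 measured probe sets. This puts the noise of a single probe set at 0.21 on the log2 scale for these 19 ribosomal genes and 0.30 for the 2057. The ratios of most ribosomal genes are smaller than either value. Genes with 1 measured probe set, Rpl27a, Rpl39, Rpl22l1 and Rps19 among them, did not enter the 0.21. Probe sets share RNA, labelling and hybridisation, so this noise holds no variation between animals. The widest gaps were in Rpl13a (−0.51 to 0.31 over 4 probe sets), Rpl7 (−0.56 to 0.19 over 3) and Rpl27 (−0.47 to 0.15 over 3). The 7 genes with a shared sign were Rpl22, Rpl41, Rpl35, Rpl7l1, Rps27l, Rps14 and Rps15. Rpl35 was above 0 in 5 of 5 probe sets, from 0.02 to 0.47, though its brightest one, at 0.02, changed sign under quantile normalization and loess.

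In the annotation, many probe sets with a ribosomal protein symbol list other symbols as well. A further 102 probe sets list several symbols of which at least 1 meets the naming rule, and they are named for no gene. Of these, 86 were measured, 43 had ratios above 0 and 43 below, and the median was 0.00. At least 1.5-fold higher signal was found in 1 of the 86 (1.16%), where 5.57% of all measured genes had it. In 4 (4.65%) the signal was lower by that much, where 5.56% of all measured genes were. These probe sets were examined after the data were seen, and some may share sequence with the genes above, which was not computed. They too centred on no difference.

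Measured genes with a TOP-like run had a median log2 ratio of 0.16 over 15 genes, 12 of them above 0, and those with a window but no run −0.01 over 22 genes, 11 of them above 0. The ranges overlapped, from −0.17 to 1.73 and from −0.64 to 0.64. Under quantile normalization and loess 8 of the 15 with a run were above 0, with medians of 0.061 and 0.027. The genes without one then had medians of −0.13 and −0.12. With a 75th percentile floor, as log2(value + floor) and with probe sets averaged, the medians with a run were 0.026, 0.028 and 0.048. Those without a run were −0.014, −0.045 and −0.003. Without probe sets of shared sequence the medians were 0.31 with a run and 0.029 without one. This split was made after the ratios had been seen and was not tested.

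Other genes of translation and ribosome assembly, from lists chosen by function, showed the following ratios. Genes of mitochondrial ribosomal proteins, which form the separate ribosome of that organelle, had a median of −0.17 over 71 measured genes, with 48 below 0, where 52.5% of all measured genes were below 0. The list median lay between −0.19 and −0.15 under the alternatives. Of the 71, 5 (7.04%) passed 1.5-fold in the lower direction, near the 5.56% of all measured genes, and 0 in the higher, against 5.57%; under quantile normalization and loess the latter count was 1. Mrpl50 was lowest, with signals of 186 and 373, and Mrpl54 highest, with 78.1 and 53.1 (0.56). The median of the large-subunit genes of that ribosome was −0.18 over 45 genes and that of its small-subunit genes −0.15 over 26.

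Ribosome biogenesis factors, which process rRNA and assemble subunits, had a median of 0.07 over 56 genes, with 34 above 0. The 1.5-fold limit was passed by 4 (7.14%) in the higher direction and by 3 (5.36%) in the lower, near the 5.57% and 5.56% of all measured genes; as log2(value + floor), and also with a 75th percentile floor, these counts were 1 and 0. Rsl1d1, a nucleolar protein with a ribosomal protein L1 domain, was highest, with signals of 213 and 97.0 (1.13), and Utp6, a factor of the small-subunit processome, lowest, with 89.9 and 148 (−0.72). RNA polymerase I and its factors had a median of −0.002 over 8 genes, 4 of them above 0, from Polr2h at −0.36 to Polr2e at 0.57, both subunits shared with other polymerases.

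Initiation factors had a median of −0.07 over 35 genes, with 15 above 0, from Eif2b5, a subunit of the exchange factor of eIF2, at −0.63 to Eif4ebp1, an inhibitor of the cap-binding protein eIF4E, at 0.62. Elongation and release factors had a median of −0.10 over 13 genes, 4 above 0 and 0 past 1.5-fold. They ranged from Eef1e1 at −0.27 to Hbs1l, a factor of ribosome rescue, at 0.34. Other genes with TOP mRNAs had a median of −0.04 over 22 genes, 10 above 0 and 0 past 1.5-fold. This list overlaps the others, with Eif4b, for example, also an initiation factor and Eef1a1 also an elongation factor. Fau, whose product is cleaved to the ribosomal protein of the small subunit known as eS30, was lowest among them, with signals of 2145 and 2948 (−0.46). Hnrnpa1, an RNA-binding protein, was highest at 0.46 and passed 1.5-fold (0.59) without probe sets of shared sequence. The 42 measured ribosomal genes and the other TOP genes were thus both within 0.1 of no difference by their medians. The 15 ribosomal genes with a TOP-like run had a median of 0.16, but this depended on the processing. The median with a run was within 0.1 under quantile normalization (0.061) and loess (0.027). It was also within 0.1 with floors at the 25th and 75th percentile (0.093 and 0.026), as log2(value + floor) (0.028) and with probe sets averaged (0.048). It was 0.15 without scaling, 0.18 with centring and 0.31 without probe sets of shared sequence.

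Growth signalling genes around mTORC1 had a median of −0.03 over 22 genes, 10 above 0, but held the widest range of the lists. Ddit4, an inhibitor of mTORC1 induced by stress, had signals of 360 and 80.8, a 4.45-fold higher value. The 1.5-fold limit was passed by 5 of the 22 (22.7%) in the higher direction, against 5.57% of all measured genes, and by 0 in the lower, against 5.56%. Besides Ddit4 and Eif4ebp1 these were the sestrin genes Sesn1 (1.40) and Sesn2 (0.80), which encode inhibitors of mTORC1 that respond to amino acids and stress, and the growth regulator Myc (0.84). Sesn3, also a sestrin gene of the list, went the other way, with signals of 32.8 and 58.1. It was above the floor only with olive oil, so it is not among the 22. With the floor at the 25th percentile it passed 1.5-fold in the lower direction. Eif4ebp1 fell short of the limit without probe sets of shared sequence (0.36), with probe sets averaged (0.49) and as log2(value + floor) (0.54). As log2(value + floor) the count in the higher direction was 2, with a 75th percentile floor, where 10 genes were measured, it was 1, and without probe sets of shared sequence it was 3. These 3 were Ddit4, Myc and Sesn2, as Sesn1 was read from a probe set of that type. The 1 gene with the 75th percentile floor was Eif4ebp1. The genes are named because all 5 past the limit are given. Mlst8, a subunit of mTORC1, was lowest at −0.57. The list of the 5S particle and p53 response centred on −0.05 over 9 genes, 4 above 0, from Btg2 at −0.24, which changed sign with the mean over probe sets, to Sesn1. Ribosome-associated and quality control factors had a median of 0.02 over 15, 8 above 0, from the chaperone gene Dnajc2 at −0.75 to Ltn1, a ligase of stalled chains, at 0.63, though with probe sets averaged these were at −0.16 and 0.10, and as log2(value + floor) neither passed 1.5-fold. The tRNA synthetase genes had a median of −0.003 over 18, 9 above 0, from Yars at −0.74 to Wars at 0.42, which changed sign in 2 alternatives.

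**Figure D4:**
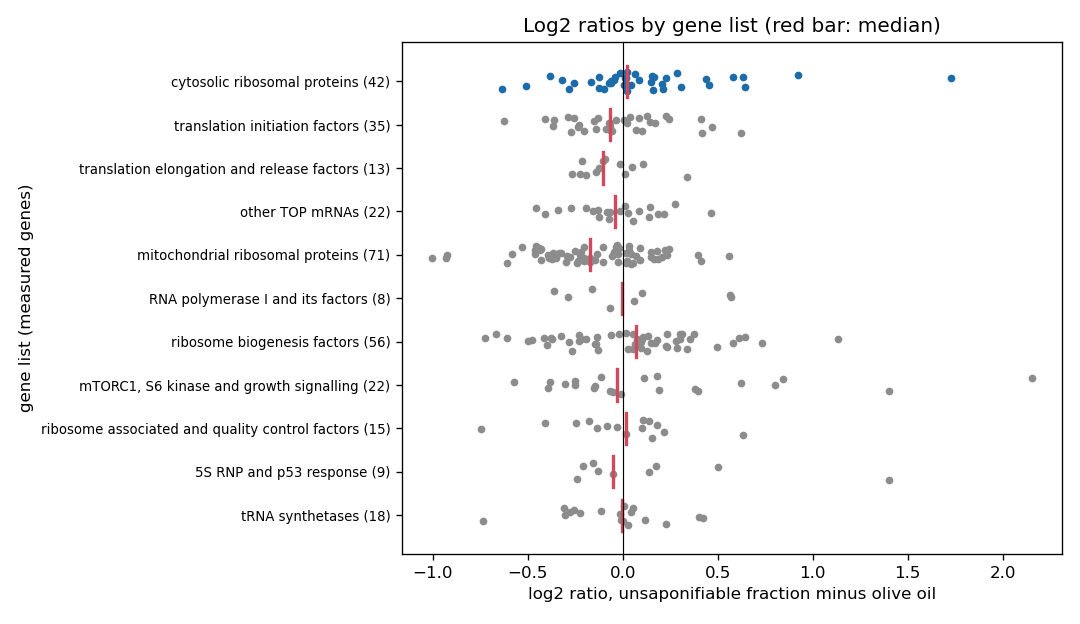
Log2 ratio (unsaponifiable fraction minus olive oil, horizontal axis) of each measured gene in 11 gene lists, with the number of measured genes in brackets, red bars at the medians and points spread vertically for legibility. The cytosolic ribosomal proteins, in blue, centre at 0.02 (below 0 under quantile normalization and loess), the mitochondrial ribosomal proteins lie to the left at −0.17, and Ddit4 is the point at 2.15.

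Some other values differed between the same arrays. The control probe sets for 18S rRNA, the RNA of the small subunit, had deposited intensities of 2294 against 395 at the 5′ end (log2 ratio 2.54), 1232 against 221 in the middle (2.48) and 5502 against 4343 at the 3′ end (0.34). The Gapdh controls were at 0.09 to 0.15 and the Actb controls at −0.27 to 0.01. The 8 hepatocyte markers centred on a log2 ratio of −0.01. Exocrine pancreas markers passed 2-fold in the lower direction in 7 of 7 measured genes, against 0.979% of all measured genes, with a summed signal over 8 genes of 632 against 5100. Summed B and T cell markers were at 362 against 381, with 7 of 11 genes below the floor on both arrays, and proliferation markers at 426 against 417, with 8 of 10 below it. The 2 measured B and T cell markers were Ptprc at −0.99 and Ighm at 0.27. Erythroid markers summed to 291 against 229 over 5 genes, of which 2 were below the floor on both arrays. The 3 measured were Hbb-b2 at 0.98, Alas2 at 0.20 and Klf1 at −0.42. Neutrophil markers summed to 323 against 262 over 7 (of the 4 measured, 3 had ratios below 0, while S100a8 with signals of 60.8 and 17.2 and S100a9 with 49.2 and 20.8 were above the floor only with the unsaponifiable fraction). Macrophage markers summed to 4146 against 3751 over 10, with 7 ratios above 0 and 3 below, and Cd5l was the brightest (1208 and 911). In tissue RNA, fewer cells of a type and less RNA per cell cannot be told apart, and the part of these differences in the ribosomal ratios was not tested.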

How the data were processed

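The authors deposited probe set intensities on a linear scale for 22690 probe sets; the sources used here name neither the software nor detection calls. The 2% trimmed mean was 100.05 on both arrays, so the deposited intensity values had been scaled per array. Here 64 control probe sets were set apart, and the others were scaled to a common 2% trimmed mean (factors 1.001 and 0.999), raised to the floor and put on the log2 scale. The platform annotation gave 1 symbol to 20380 probe sets, several to 691 and none to 1555; all 49 ribosomal genes matched RefSeq by Entrez identifier, with 0 symbols changed. No p-value is given. The number of arrays limits the precision. Genes named are the 8 highest and 8 lowest ratios, the 5 brightest and 5 dimmest measured, paralogs with parents, stalk genes, Rpsa and Rps6, the 3 widest probe set gaps, and each list's highest and lowest member; others were chosen after their values were seen. The members and lists were chosen with earlier results of these data known. The ratio calculation was tested on simulated data. Python 3.11.15, numpy 2.4.6 and pandas 2.3.3 were used. The 10 alternatives fixed at the outset changed scaling, floor, probe set rule or membership.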

Additional observations from a re-analysis of the deposited data

How the results depend on the processing

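No paired analysis was possible because there is 1 array per diet. Under quantile normalization and loess, 25 and 26 of 42 ribosomal genes lay below 0 and 17 and 16 above it, and the medians of the group (−0.045 and −0.063), the large subunit (−0.049 and −0.067) and the small subunit (−0.032 and −0.054) changed sign, as did the large-subunit median with the mean over probe sets (−0.012). Under a 75th percentile floor 2 genes passed 1.5-fold in the higher direction and 0 passed 2-fold. Among bright genes alone, an alternative chosen after seeing the data, these counts were 1 and 0, and 0 passed 1.5-fold in the lower direction, as with the mean over probe sets. List medians near 0 also turned. RNA polymerase I factors gave 0.017 under centring, 0.011 under quantile normalization, 0.0092 under loess, 0.081 and 0.25 under floors at the 25th and 75th percentile, and 0.018 with the mean over probe sets. The tRNA synthetases gave 0.016, 0.018 and 0.013 under centring, quantile normalization and loess. Ribosome-associated factors gave −0.013 with the mean over probe sets and −0.026 without probe sets of shared sequence, and the p53 list 0.0081 under a 75th percentile floor and 0.14 with the mean over probe sets. The cause was not tested. Of the 42 genes, 28 kept the sign of their ratio in every alternative that gave one, among them all 5 past 1.5-fold, and the 14 others were at most 0.28 in size. A kept sign is limited support. A change of percentile floor or membership leaves the ratio of a gene still measured unchanged, and averaging cannot alter a gene with 1 measured probe set. Rps7, Rps9, Rps18 and Rps29 count as kept though their measured probe sets differed in sign.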
